A study of Caenorhabditis elegans with 2 samples.

Results

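The attf genes of the nematode Caenorhabditis elegans were examined in ChIP-seq peak lists for the protein of 1 of them, attf-3. These were attf-3, which carried the tag, and attf-2, attf-4, attf-5 and attf-6, which did not. They are 5 of 19973 protein-coding genes on the chromosomes of assembly WBcel235 (ce11), and they were chosen by name. Every peak summit inside a gene body widened by 2000 bp on either side was counted as belonging to the gene.

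ChIP-seq recovers DNA fragments cross-linked to a protein and calls their pile-ups as peaks, and a summit is the position where a peak is highest. The worms were strain RW12296, in which CRISPR had inserted TY1, EGFP and 3xFLAG at attf-3 (allele st12296 on chromosome III), and the fusion protein was pulled down with an antibody against GFP. Whole young adults aged 63 hours, synchronised by bleaching and starving L1 larvae, formed the only group, with 2 biological replicates. All samples carried the tag, so no contrast between genotypes or conditions exists and no test between groups was made. Whole worms pool all tissues, and signal in a few cells cannot be told apart from weak signal in many. The lists hold no read counts, so the depth of either replicate is unknown.

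An AT-hook is a short peptide motif that lies in the minor groove of DNA rich in A and T, and proteins of the HMG-I type are its best-known carriers. Worm genes named attf were named as a family of AT-hook transcription factors. RefSeq describes the products of attf-2, attf-5 and attf-6 in those words, calls the attf-4 product an AT hook-containing protein, and describes the attf-3 product only by a C2H2-type domain, a kind of zinc finger. Some transcription factors bind the promoters of their own genes.

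Peaks of the attf-3 protein that passed the threshold lay upstream of its own gene, and none lay inside it. In the joint list, which rests on the comparison of both replicates at an irreproducible discovery rate (IDR) of 1%, attf-3 had 2 summits, of which 1 was in its own promoter and 1 at the start of the next gene. Of the 4 untagged attf genes, only attf-2 had a summit, outside its own promoter window of 500 bp and nearer to the starts of other genes. attf-4, attf-5 and attf-6 had none in the joint list, in the list from pooled reads or in either replicate's own list. Counts for all genes of the family were the same in these 4 lists, of which the joint list and the list from pooled reads held the same peaks there.

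The 3 sites are shown first, since their bases are compared below. Sequences are from the RefSeq copy of WBcel235, written 5' to 3', with runs of 6 or more A or T in capitals. The first is the whole gap between F54C4.4 and attf-3 (chrIII:86385-86676, minus strand, read towards attf-3), which holds the attf-3 promoter summit at base 152. The second is the gap between the divergent genes F54C4.4 and mrpl-40 (chrIII:87382-87558, plus strand, read towards mrpl-40), whose first base adjoins the annotated start of F54C4.4, 6 bp from the joint summit. The third is the summit upstream of attf-2 with 50 bp on either side (chrV:7196601-7196701, minus strand, read towards attf-2).
attf-3/F54C4.4 gap: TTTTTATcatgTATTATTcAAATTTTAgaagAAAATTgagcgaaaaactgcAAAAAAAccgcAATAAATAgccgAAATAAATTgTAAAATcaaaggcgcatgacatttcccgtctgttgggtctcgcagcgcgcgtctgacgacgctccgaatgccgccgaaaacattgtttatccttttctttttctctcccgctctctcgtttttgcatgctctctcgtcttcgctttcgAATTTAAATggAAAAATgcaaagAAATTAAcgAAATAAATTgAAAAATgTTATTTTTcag
F54C4.4/mrpl-40 gap: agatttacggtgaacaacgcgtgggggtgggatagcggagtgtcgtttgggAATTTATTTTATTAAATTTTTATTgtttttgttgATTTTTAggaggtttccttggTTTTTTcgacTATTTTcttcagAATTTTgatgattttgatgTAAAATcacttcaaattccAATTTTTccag
attf-2 summit window: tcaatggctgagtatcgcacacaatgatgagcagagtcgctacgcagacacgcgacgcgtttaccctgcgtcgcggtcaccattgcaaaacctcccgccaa

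attf-3 (WBGene00018794) spans 69850 to 86384 on the minus strand of chromosome III, 16535 bp with 18 exons, and 73.5% of it is intron. It lies between spt-4, which encodes a transcription elongation factor and is 97 bp beyond its 3' end, and F54C4.4, which RefSeq names only by a NAM-associated domain and which is separated from its 5' end by 292 bp. All these genes are on the same strand, while mrpl-40, which encodes a protein of the large subunit of the mitochondrial ribosome, points away from F54C4.4. The attf-3 gap printed above ends in a run of T followed by cag, directly before the annotated 5' end. As background, those are the letters of worm splice acceptors, and many worm messages are trans-spliced, so an annotated 5' end need not be where transcription starts.

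In the attf-3 promoter, the peak had a signal of 433.79 in replicate 1 and 405.19 in replicate 2. In the joint list the same site had 832.02. Signal is the value of the peak caller, on a scale that is not stated, so it was compared within a list only. In replicate 1 the peak ranked 102 of 964, above 89.4% of the peaks, and in replicate 2 it ranked 126 of 1063, above 88.1%, a mean of 88.8% ± 0.9 (SD, n = 2). In the joint list it ranked 115 of 1737, above 93.4%. Relative to the median peak of each replicate's list, the signal was 4.44-fold ± 0.283 (SD, n = 2), and 6.77-fold in the joint list. All lists thus placed it in their upper part and below their top. Its scaled IDR score was 1000 in all of them, the highest the scale allows, where 830 stands for an IDR of 1%. Most peaks past the threshold shared that score, 819 of 964 in replicate 1, 899 of 1063 in replicate 2 and 1376 of 1737 in the joint list.

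The replicates placed that summit at -152 and -147 bp from the annotated 5' end of attf-3, 5 bp apart, and the joint list placed it at -141 bp, where negative distances are upstream. The joint peak, from 86400 to 86667, fitted inside the 292 bp gap and touched neither gene. It was 268 bp wide, against a median of 320 bp over the joint list, and 13.4% of the 1737 joint peaks were narrower. In the replicates it was 254 and 222 bp wide, against list medians of 310 and 300 bp. Apart from this peak and the one at F54C4.4, every peak at the attf genes had exactly the median width of its list. The medians are thus a width that many peaks share and need not be a typical measured width. A summit within 500 bp of the own 5' end was present at 1 of the 5 attf genes, attf-3, against 6.07% of all protein-coding genes.

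The second summit in the attf-3 locus belonged by position to its neighbours. It lay at -992 bp from the attf-3 5' end, 5 bp inside the annotated start of F54C4.4 and at -183 bp from that of mrpl-40, in a peak from 87200 to 87566. Its signal was 597.67 in replicate 1, with rank 54, 708.16 in replicate 2, with rank 42, and 1306.34 in the joint list, with rank 47. The replicates' summits were 2 bp apart, at -3 and -5 bp from the F54C4.4 start. The attf-3 promoter peak had a lower signal than this neighbour in both replicates, with ratios of 0.726 and 0.572 (mean 0.649 ± 0.109, SD, n = 2) and 0.637 in the joint list. The 2 summits were 851 bp apart in the joint list. Peaks of this kind do not tell which gene of a divergent pair the protein acts on. With both peaks counted, attf-3 was among the 2.93% of protein-coding genes with at least 2 summits in the widened gene.

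**Figure D1:**
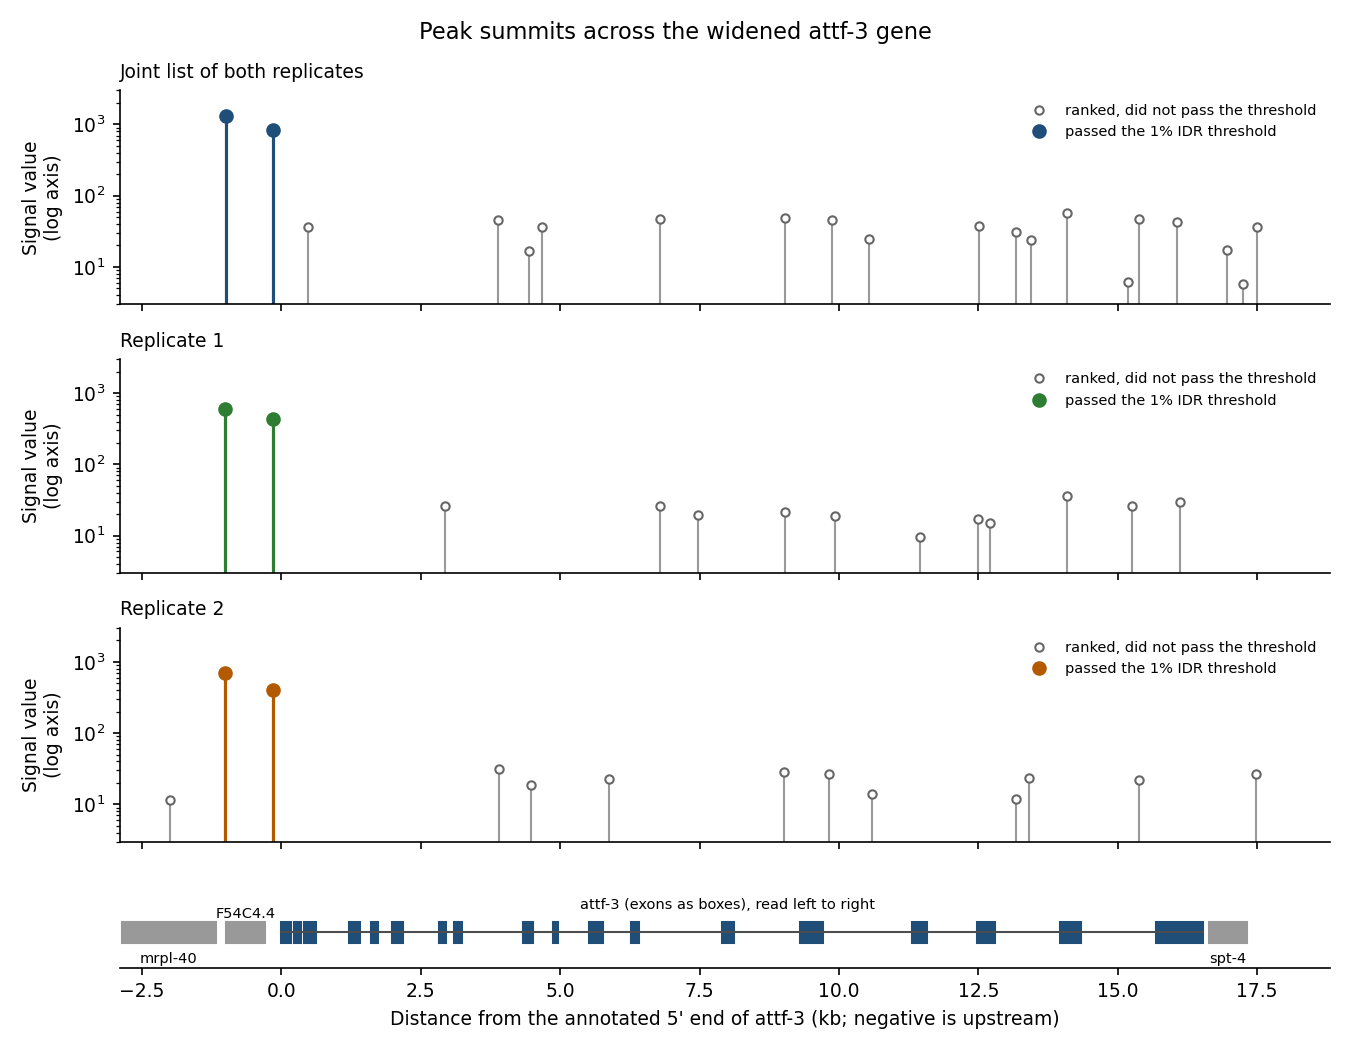
Signal value (log axis) of each peak summit against its distance from the annotated 5' end of attf-3 in kb, in the joint list and in each replicate, with exons of attf-3 and its neighbouring genes below. Filled points passed the 1% IDR threshold and stand, in the joint list, only at -141 and -992 bp, while the open points inside the gene are ranked peaks that did not pass.

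Inside the gene, where introns make up most of the sequence, no summit passed the threshold in any of the 4 lists. Of the 998 protein-coding genes of at least 10000 bp, 7.62% had a joint summit in their body, so that attf-3 was like most long genes in having none. In the widened gene, 17.6% of long genes had at least 1 joint summit, and attf-3 was among them through its upstream side. The ranked lists, which hold all peaks before the threshold, gave weak summits throughout. The joint ranked list had 20 summits in the widened attf-3 gene, 15 of them in the body, and of these 10 in introns, 3 in coding exons, 1 in the 3' UTR and 1 at +485 bp. In the replicates' ranked lists 5 of 11 and 8 of 9 body summits were in introns.

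The body summits were far weaker than the promoter peak. Their highest signal was 36.4 in replicate 1, 31.8 in replicate 2 and 56.77 in the joint list, where it lay in a coding exon at +14094 bp. In all 3 lists their scores stayed at or below 192, and the best of them had an IDR of 34.3%. The median body signal in the joint ranked list was 36.99, against 30.72 over all its 71287 peaks. The other ranked lists did not show this clearly. The medians were 21.32 against 20.74 in replicate 1, 22.64 against 23.15 in replicate 2 and 28.16 against 31.28 in the list from pooled reads. Of the 15 body summits, 4 overlapped a ranked peak in both replicates, 10 in 1 replicate and 1 in neither. Some of these ranked peaks overlap each other, so the counts are of list entries and not of separate sites. The 4 include the overlapping peaks with summits at +15385 and +15185 bp, which met the same replicate peaks. Only 1 site inside the gene had ranked summits of both replicates within 50 bp of each other, in an intron at +9029 and +9011 bp, with signals of 21.32 and 28.76. The highest body signal was above that of 69.6% of the 998 long genes in replicate 1, 48.8% in replicate 2 and 53.3% in the joint list.

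The tag stands after attf-3 in the allele name, so the stop codon end of the gene was also examined. The nearest ranked joint summit lay 198 bp from the annotated stop codon, with a signal of 42.4 and a score of 46. In the replicates the nearest ranked summits were 253 and 482 bp away, with signals of 29.31 and 22.08. The nearest summit past the threshold in the joint list was 12866 bp away and outside the widened gene. No untagged strain was analysed here, and whether the tag affects signal at attf-3 was not tested.

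attf-2 (WBGene00017317, chromosome V, 7193766 to 7196137, minus strand) was the only untagged attf gene with a summit past the threshold. Its signal was 89.88 in replicate 1, with rank 515 of 964, 108.91 in replicate 2, with rank 445 of 1063, and 198.88 in the joint list, with rank 468 of 1737. It therefore stood near the middle of each replicate's list, above 46.6% and 58.1% of the peaks (mean 52.4% ± 8.17, SD, n = 2), below the place of the attf-3 promoter peak in both. The score was 1000 in all lists, as it was for most peaks past the threshold. The replicates' summits were 1 bp apart, and the joint peak ran from 7196491 to 7196810.

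The attf-2 site lay at -514 bp from attf-2, outside the 500 bp promoter window, and at -265 bp from the divergent gene F09G2.2, which RefSeq describes as protein CNPPD1. It was also 71 bp upstream of F09G2.14, a small nucleolar RNA gene that lies between the summit and attf-2 on the attf-2 strand. Small nucleolar RNAs guide chemical modification of other RNAs. The summit thus had 3 annotated starts around it and was nearest to the snoRNA gene. In the 778 bp between attf-2 and F09G2.2 no second summit passed the threshold, and the ranked lists of both replicates had a further weak summit at -1109 and -1112 bp, 3 bp apart and inside F09G2.2.

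At least 1 joint summit in the widened gene was present at attf-3 and at 1 of the 4 untagged genes, against 13.5% of all protein-coding genes (95% Wilson interval 13.01 to 13.96%, for counting error over genes only). In the replicates' own lists that share was 9.14% ± 0.46 (SD, n = 2). A summit in both replicates' lists was present at attf-3 and attf-2, against 7.12% of protein-coding genes. With 4 untagged genes, 1 is the smallest count above 0, and it was not read as differing from the background.

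attf-4, attf-5 and attf-6 had only ranked peaks. attf-4 (WBGene00015477, chromosome III, 6080563 to 6084748, plus strand) had 4 summits in the joint ranked list, led by 1 in a coding exon at +2751 bp with a signal of 63.43, a score of 472 and an IDR of 7.27%. The replicates' highest summits were at +2691 bp in replicate 1, with a signal of 29.52, and at +2771 bp in replicate 2, with 43.11. Both lay in the same part of the gene, but their scores were 32 and 36. The replicate 1 summit was in an intron and the replicate 2 summit in a coding exon. A further pair lay upstream, at -847 and -867 bp, with signals of 19.72 and 41.02.

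attf-5 (WBGene00020214, chromosome X, 788353 to 796154, plus strand) came nearest to the threshold in 1 replicate. Its joint ranked list had 2 summits, the higher in a coding exon at +4075 bp with a signal of 66.7 and a score of 241, which is an IDR of 26.3%. In replicate 2 the summit at +4047 bp had a signal of 45.03 and an IDR of 5.14%, while in replicate 1 the summit at +4073 bp had 25.74 and an IDR of 93.3%. The replicates therefore differed widely in the rank of that site. Of the 8 replicate summits in the attf-5 body, 7 were in coding exons and the other was at +311 bp. Exons make up 66.8% of that gene, so most summits would be exonic by length alone.

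attf-6 (WBGene00012474, chromosome I, 12787943 to 12806581, minus strand), the longest of the family at 18639 bp, was empty in the joint ranked list and in the ranked list from pooled reads. Of the 998 long genes, 4.11% had no joint ranked summit in the widened gene. The stretch without a joint ranked summit around attf-6 was 27869 bp long, against a median of 739 bp, and 116 of 71281 such gaps were at least as long. In the list from pooled reads it was 30957 bp, and 79 of 69079 gaps were at least as long. A gap that contains a whole gene of 18639 bp is long by construction. These ranks among all gaps are therefore no measure of rarity, and the 4.11% of long genes is the closer comparison. That share covers all genes of at least 10000 bp and is not matched to the length of attf-6. The replicates' own ranked lists did hold weak summits there, 4 in replicate 1, with signals up to 36.04, and 3 in replicate 2, with signals up to 25.61, and scores of at most 80. Of these 7, 5 were in coding exons, while exons make up 27.9% of the gene. With so few weak summits, that difference was not tested. The 5 were also not separate sites. The peaks with summits at +3730 and +3529 bp in replicate 1 overlapped, and the peak with its summit at +3737 bp in replicate 2 overlapped both. At 1 site the replicates agree to within 7 bp, at +3730 and +3737 bp.

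Across the family, ranked summits per kb of widened gene in the joint list were 0.974 at attf-3, 1.10 at attf-2, 0.489 at attf-4, 0.169 at attf-5 and 0 at attf-6, against 0.711 over the genome. The short untagged attf-2 was thus denser than the tagged attf-3, with overlapping ranked peaks counted separately at the genes and over the genome. In both replicates attf-3, attf-2 and attf-4 were above the genome density of 0.433 and 0.376 per kb, and attf-5 and attf-6 were below it. The AT content of the widened genes was 63.01% at attf-3, 62.07% at attf-2, 63.8% at attf-4, 64.3% at attf-5 and 69.2% at attf-6, so that attf-6 had both the fewest ranked summits and the highest AT content. So few genes allow no test of that relation.

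**Figure D2:**
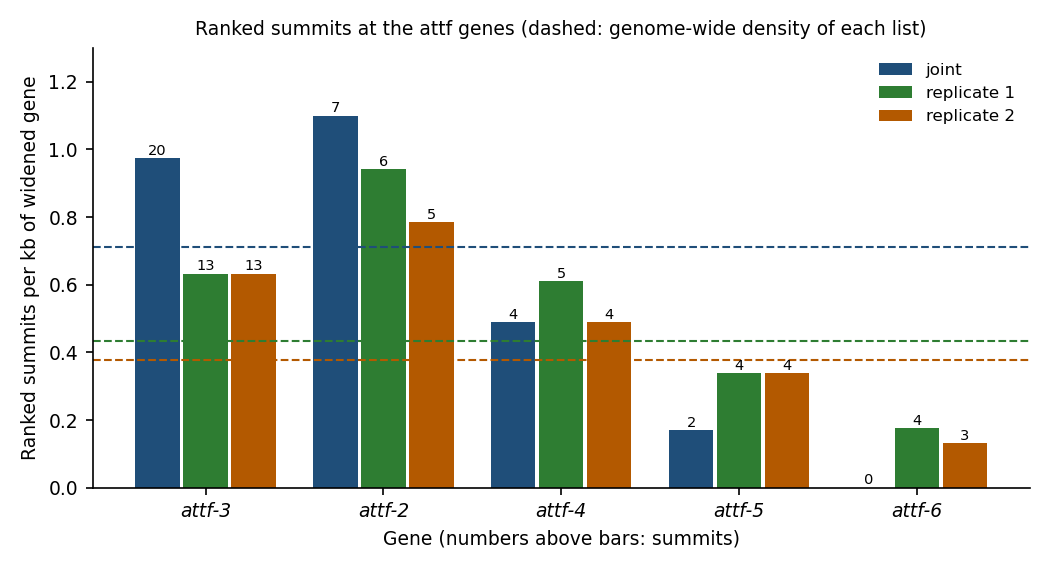
Ranked summits per kb of widened gene at the attf genes in the joint list and in each replicate (bars from 0, with the number of summits above each), with the genome density of each list as a dashed line of the same colour. attf-3 and attf-2 stand above the line of each list and attf-5 and attf-6 below it.

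To place the family among all genes regardless of the threshold, each of the 19973 protein-coding genes was given the highest ranked signal in its widened body. attf-3 was above 99.3% of genes in replicate 1 and 99.4% in replicate 2 (mean 99.38% ± 0.0778, SD, n = 2). With the F54C4.4 peak set aside, the signal of the attf-3 promoter peak was still above the highest widened-gene signal of 98.8% of genes in replicate 1 and 98.5% in replicate 2. attf-2 was above 94.8% and 95.3% of genes (mean 95.06% ± 0.396, SD, n = 2). Near the top of this scale a percentile has little room to move, so these small spreads are no measure of stability. attf-4 was above 56.9% and 82.1%, attf-5 above 54.99% and 83.9%, and attf-6 above 74.4% and 38.2%. The spread of these 3 genes between replicates covers the differences among them, and their order is not resolved. These shares take no account of gene length. Against the 998 long genes alone, attf-3 was above 98.5% in replicate 1 and 98.7% in replicate 2, and attf-6 above 54.9% and 13.9%.

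**Figure D3:**
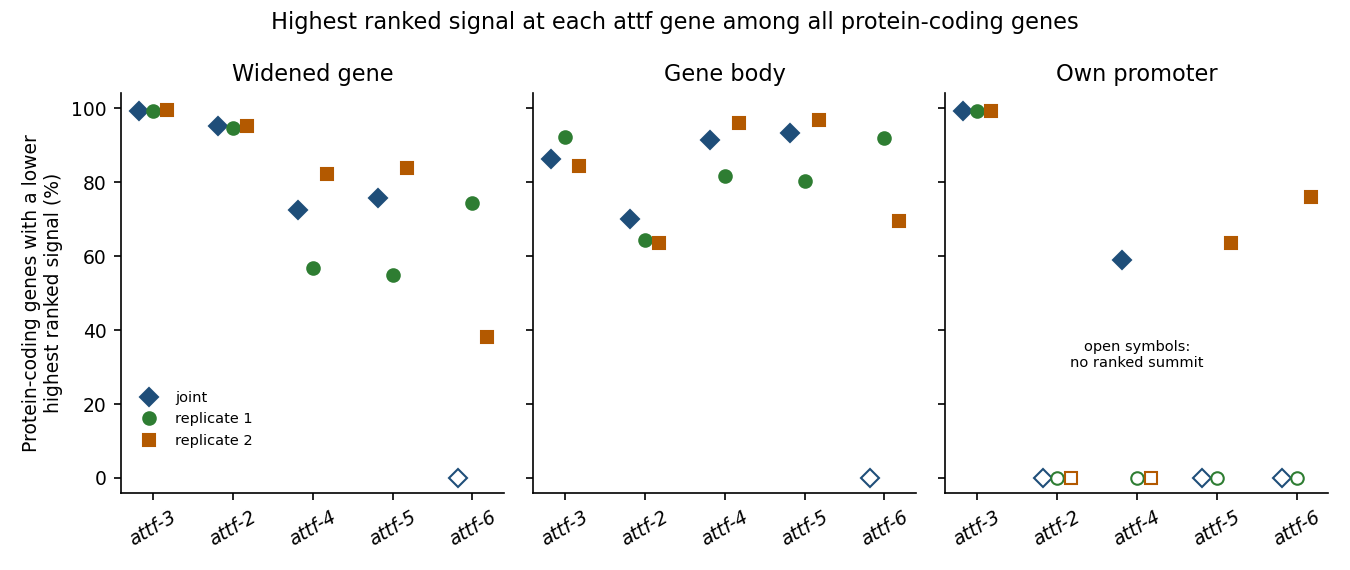
Percent of protein-coding genes with a lower highest ranked signal for each attf gene, in the widened gene, the gene body and the own promoter (within 500 bp of the 5' end), in the joint list and in each replicate; open symbols mark no ranked summit. In the own promoter only attf-3 has a ranked summit in all 3 lists, above about 99% of genes. In the gene body attf-3 is lower than attf-4 and attf-5 in the joint list and in replicate 2, and higher than both in replicate 1.

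The bases under the summits were then compared, since the proteins are named for a motif that binds AT-rich DNA. In the joint summit and the 50 bp on either side, AT content was 45.5% at the attf-3 promoter, 45.5% at the F54C4.4 start and 43.6% at the attf-2 site, against a median of 53.5% over all 1737 joint summits (quartiles 47.5 and 59.4%) and 64.6% over the genome. At the attf-3 promoter, 16.98% of joint summits had a lower AT content, and at the attf-2 site 11.1%. Over the whole attf-3 promoter peak, AT content was 61.6%, against a median of 60.6% over whole joint peaks, and 54.2% of these were lower. Runs of 6 or more A or T were absent from all 3 windows, where the longest runs were 5, 5 and 4 bp, while 71.8% of joint summits held at least 1. The ranked exon sites of attf-4 and attf-5 had 55.4% and 63.4% AT, with longest runs of 6 and 10 bp.

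The attf-3 gap printed above shows where the runs lie. It holds 14 runs of 6 or more, 8 on the side of F54C4.4 and 6 on the side of attf-3, and the summit stands in a stretch of 142 bp between them that has none. That stretch was 47.2% AT, against 78.7% in the rest of the gap. The F54C4.4/mrpl-40 gap was 67.2% AT with 7 runs, and the joint summit there lay just outside it, on the F54C4.4 side, while the replicates' summits lay at its bases 3 and 5; all were on the side without runs. These sequences describe 3 sites, and which bases the protein contacts was not tested.

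**Figure D4:**
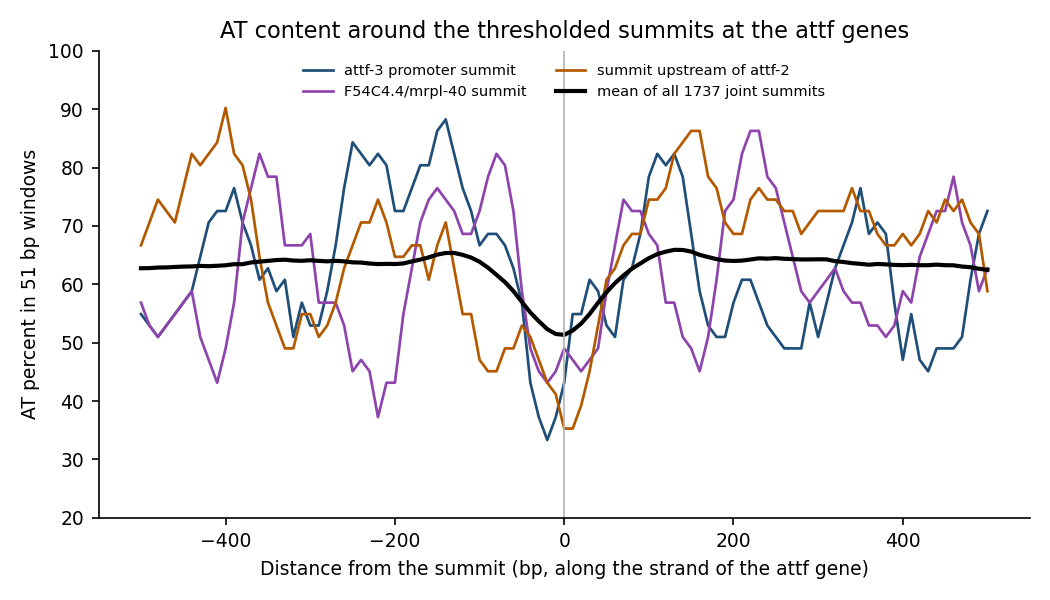
AT percent in windows of 51 bp against the distance from the summit in bp, along the strand of the attf gene, for the 3 summits past the threshold at attf-3 and attf-2 and as the mean over all 1737 joint summits. The mean falls to 51.3% at the summit, against 62.8% at -500 bp, and the attf-3 promoter reaches its lowest value, 33.3%, at -20 bp.

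Genes named for AT-hook or HMG-I type DNA binding outside the family, athp-1, athp-2, athp-3, hmg-11 and hmg-12, served as a further list. Only hmg-11, which encodes an HMG-I type protein, had a joint summit, so 1 of 5 did, against the 13.5% of all protein-coding genes. That peak had a signal of 95.06 and rank 1299 of 1737, at -383 bp from hmg-11 and -358 bp from the neighbouring C-type lectin gene clec-140. It was in the ranked lists of both replicates, where the highest signal at hmg-11 was 51.42 and 42.01, and in the thresholded list of neither. hmg-12 came next, with a ranked signal of 73.17 and an IDR of 5.75% in the joint list at +2125 bp. That site is beyond the 3' end of the gene, which is 1131 bp long. Within 500 bp of the hmg-12 5' end the highest joint ranked signal was 52.39, at +421 bp, with an IDR of 6.66%.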

How the data were processed

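The data were 8 peak lists on ce11 deposited for 2 replicates of 1 group, grouped by their labels, with replicate numbers from the labels. Per the deposited file descriptions, lists derive from alignments of the replicates and a control; neither aligner nor caller is given in the sources used here. For each peak, the authors deposited a signal value, a score scaled from the IDR and, in ranked lists, the −log10 of the global IDR. The joint list is the conservative thresholded list. Per ranked series list, 8 unnamed columns of replicate values were not used.

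Genes came from Ensembl release 115 and bases from RefSeq, both WBcel235. A summit is a peak's start plus its offset, counted from 1. Distances run from the gene's outermost 5' end. Every value is a count, share or percentile within a list, with no test; Wilson intervals (95%) cover counting error only. Of the peaks at an IDR of at most 1%, the thresholded joint list lacks 82, none in the attf loci. The genes named were the attf genes, the genes nearest their summits or overlapping their widened bodies, and the AT-hook list; RefSeq names come from its annotation. Members, lists and alternatives were chosen with earlier results of these data known. Functions were tested on simulated data. Python 3.11.15, numpy 2.4.6 and pandas 2.3.3 were used.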

Additional observations from a re-analysis of the deposited data

How the results depend on the processing

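The 2 summits at attf-3 and the 1 untagged gene with a summit, attf-2, were found again in each replicate's own list (leaving out the other) and with any overlap of 1 bp. Joining overlapping peaks or keeping only scores of 1000 could not change these counts. The peaks concerned overlap no other peak of the joint list and all score 1000. At the attf genes the thresholded list from pooled reads held the same peaks with the same signals as the joint list, so its counts there add nothing. How far a gene is widened decided the counts by construction. With the gene body alone there were 0 summits at attf-3, 0 untagged genes with one and 2.36% of protein-coding genes; with 500 bp, 1, 0 and 8.95%; with 5000 bp, 3, 1 and 20.9%. Leaving out a replicate gave 8.82 to 9.47% of protein-coding genes, against 13.5%. The percent of peaks below the attf-3 promoter peak was 88.15 to 89.42 when a replicate was left out, 99.8 in either ranked list, which hold many weaker peaks (99.83 conservative, 99.82 pooled), and 89.1 among peaks within 500 bp of a 5' end. AT content at that summit was 56.2% with 100 bp on either side (42.03% of joint summits lower), 61.6% over the whole peak (54.2% lower) and 45.5 to 47.5% when a replicate was left out; with 50 bp on either side, 16.98% were lower. With a promoter window of 1000 bp, 3 summits, in place of 1, lay in an attf gene's own promoter. Depth is unknown, so an absent peak means not detected in these lists. No paired analysis was possible because there is only 1 group.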

Other observations

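The windows under the summits were also searched for CG dinucleotides and for CTCTC on either strand, features chosen after the sequences were seen. The attf-3 promoter window held 12 CG, the F54C4.4 start 9 and the attf-2 site 11, against a median of 7 over the 1737 joint summits (quartiles 5 and 9). Fewer CG were found in 92.6% of joint summits than at the attf-3 promoter and in 87.9% than at attf-2. Windows centred 141 bp upstream of the 5' ends of all 19973 protein-coding genes, the distance of the attf-3 promoter summit, had a median of 3 CG, and 99.6% of them had fewer than that summit. The ranked exon sites of attf-4 and attf-5 held 2 and 4. With overlapping matches counted, CTCTC occurred 3 times in each window of the attf-3 locus and 0 times at attf-2; 26.7% of joint summits held it, against 16.4% of the windows upstream of 5' ends.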
